A study of Mus musculus with 7 samples.

Results

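The 10 genes described here are imprinted and were grouped as growth regulators: Meg3, Rian, Dlk1, H19, Peg3, Peg10, Plagl1, Grb10, Sgce and Ndn. They were chosen by symbol from the table of tag counts per gene, where all 10 were found among 23282 entries. The series held 4 Fyn-KO libraries and 3 WT libraries of RNA from adult C57BL/6 mice with glioblastoma, a malignant brain tumour. Each library came from tumour cells sorted independently by FACS as tdTomato+, and the genotype label of the first group was FYN-KO. Fyn encodes a Src-family tyrosine kinase. The sources used here do not say how Fyn was deleted, which cells carried the deletion, how the tumours were started or what drove tdTomato.

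Imprinted genes are transcribed mainly from the copy inherited from 1 parent, set by DNA methylation laid down in the germ line. Many paternally expressed genes favour growth of the embryo and placenta, and many maternally expressed genes restrain it. In mice, Meg3, Rian, H19 and, outside neurons, Grb10 are expressed mainly from the maternal copy, and Dlk1, Peg3, Peg10, Plagl1, Sgce and Ndn from the paternal copy. Most of them fall silent or decline after birth in many tissues, while several stay on in brain and endocrine glands. The assay counted 3′ ends of polyadenylated RNA and did not separate the parental copies, so each value is the sum of both.

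Meg3, Rian and H19 are long noncoding RNAs that carry microRNAs, which gives these host transcripts a sequence-level product. RefSeq for GRCm38.p6 placed 10 mature microRNAs with 10 distinct seeds inside these 3 gene bodies, of which 5 are shown: both arms from H19 and Meg3, and 1 of the 6 from Rian as an example. Capitals mark the seed, bases 2 to 8, which pairs with target RNAs. The microRNA of H19 is miR-675 (chr7:142577112-142577133 and chr7:142577078-142577099, minus strand), that of Meg3 is miR-770 (chr12:109563710-109563731 and chr12:109563744-109563765, plus strand), and miR-370 lies in Rian (chr12:109618305-109618326, plus strand).
mmu-miR-675-5p: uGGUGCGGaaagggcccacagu
mmu-miR-675-3p: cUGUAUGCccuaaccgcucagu
mmu-miR-770-5p: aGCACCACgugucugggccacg
mmu-miR-770-3p: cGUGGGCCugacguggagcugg
mmu-miR-370-3p: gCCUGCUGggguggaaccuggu
No 2 of these seeds were alike. The libraries measured the polyadenylated host transcripts, not the mature microRNAs.

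Promoter windows, 250 bases before to 50 bases after a RefSeq start, were found for 7 of the 10 members, with 9 windows in all. The windows of Meg3, the most abundant member, and Peg3, a member whose group ranges did not overlap, are shown. In human cells a cAMP response element is known in the proximal MEG3 promoter, so its letters, TGACGTCA (a palindrome), and the TATA box letters TATATAA were searched on both strands. Capitals mark the matches. In the Meg3 window (GRCm38.p6, chr12:109540746-109541045, plus strand), the cAMP response element letters begin 57 bases before the start, and TATATAA overlaps its own reverse complement in a run that begins 28 bases before it.
Meg3 promoter: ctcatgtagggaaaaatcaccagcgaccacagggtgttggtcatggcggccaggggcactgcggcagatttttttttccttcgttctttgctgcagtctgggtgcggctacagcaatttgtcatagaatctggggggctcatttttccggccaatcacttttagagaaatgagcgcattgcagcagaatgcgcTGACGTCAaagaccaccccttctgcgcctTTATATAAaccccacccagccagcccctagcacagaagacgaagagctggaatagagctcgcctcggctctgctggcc
In the Peg3 window (GRCm38.p6, chr7:6730370-6730669, minus strand) the same element begins 178 bases before the start.
Peg3 promoter: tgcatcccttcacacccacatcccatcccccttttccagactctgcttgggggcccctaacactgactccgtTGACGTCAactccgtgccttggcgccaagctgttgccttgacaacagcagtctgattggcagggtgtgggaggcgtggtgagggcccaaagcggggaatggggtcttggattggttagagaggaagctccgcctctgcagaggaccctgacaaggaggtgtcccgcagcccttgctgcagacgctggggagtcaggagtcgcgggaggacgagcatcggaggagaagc
TGACGTCA was in 2 of the 9 member windows and in 1.79% of all 32851 windows, and TATATAA was in 1 of the 9, that of Meg3, and in 3.24% of all. These matches are letters only. The motifs were chosen after the values had been seen.

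The libraries differed between the groups in ways that touch every value below. Totals were 8976745 to 10396507 counts in Fyn-KO and 11911864 to 16371244 in WT, so the floor of 3 counts was at most 0.334 CPM (counts per 1000000 of the library total). Fyn was at 105, 106, 74.5 and 190 CPM in the Fyn-KO libraries and at 1039, 719.9 and 1604 CPM in the WT libraries, with no overlap. Its log2 fold change was -3.43 ± 0.51 (SE), with an adjusted p of 0.0121 by edgeR's quasi-likelihood test, and -2.81 without WT replicate 3. Whether the counted 3′ end lies in the deleted stretch is not given. The labelled tumour cells of the Fyn-KO libraries had low oligodendrocyte-lineage markers: the 6 markers summed to 168 to 822 CPM, against 11458 to 17272 CPM in WT, and 6 of 6 fell. Of 7 genes of steroid-producing cells, 2 rose (Cyp17a1 and Cyp19a1), and the 7 summed to 23841 to 28449 CPM in the Fyn-KO libraries and 89.0 to 479.9 CPM in WT. Markers of ovarian granulosa and luteal cells rose in 5 of 6 tested and summed to 935 to 1350 CPM in the Fyn-KO libraries and 0 to 7.21 CPM in WT. Amh, listed with them but not tested, was at 1.07 CPM in Fyn-KO replicate 1 and at 0 in every other library. Adrenal cortex markers rose in 3 of 3 tested (Nr5a1, Cyp11b1 and Mrap), of 6 listed, and summed to 445 to 509 CPM in Fyn-KO and to 0 in WT. These 3, like Cyp17a1, Cyp19a1 and the ovarian markers Inhba and Lhcgr, had no WT count. They passed the filter on low counts through Fyn-KO alone. Over all tested genes 19% rose and 3.51% fell by the same test. Of the adrenal cortex markers not tested, Cyp11b2 and Mc2r were at 0 in every library. Cyp21a1 was at 1.49, 0, 0.547 and 0 CPM in Fyn-KO replicates 1 to 4 and at 0 in WT. The 45S ribosomal RNA entry Rn45s took 10.5 to 16.6% of Fyn-KO counts and 1.41 to 2.92% of WT counts. A count was present for 95.9 to 98.6% of the 13122 tested genes in Fyn-KO libraries and for 55.8 to 71.5% in WT libraries. The filter on low counts can keep a gene counted in a single group, so these shares depend on it. Over all entries, genes with a count numbered 13535 to 14548 in Fyn-KO libraries and 7723 to 9924 in WT libraries. The part of these differences in the results on the imprinted genes was not tested. Fewer expressing cells and less RNA per cell cannot be told apart in such bulk libraries, and the p-values measure only the spread between these libraries.

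None of the 10 imprinted genes passed the test. Of the 9 that could be tested, 0 rose and 0 fell by edgeR's quasi-likelihood test (adjusted p under 0.05), where 19% of all tested genes rose and 3.51% fell. At an unadjusted p under 0.05 the count was 1 higher (Peg10) and 0 lower, where 26.3% of all tested genes were higher and 7.11% lower. DESeq2 called 1 higher (Peg10), where it called 27.2% of all genes higher, and limma-voom called 0. The median log2 fold change, Fyn-KO minus WT, was 0.31 over the 9 members and 0.45 over all tested genes. In 2 members, Peg3 and Peg10, every Fyn-KO library was above every WT library. That is 2 of 9, where 30.1% of all tested genes showed the same separation, and no member was separated the other way (7.32% of all genes). The calls depended on WT replicate 2: without it, 3 members (Peg3, Peg10 and Plagl1) passed as higher, where 32.8% of all genes tested in that fit rose.

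The number of these genes detected varied more among WT libraries than among Fyn-KO libraries. Counts were found for 9, 10, 9 and 9 of the 10 in Fyn-KO replicates 1 to 4, and for 2, 9 and 7 of the 10 in WT replicates 1 to 3. In WT replicate 1 only Meg3 and Rian had a count. WT values were mostly either 0 or well above it: of 30 member values 12 were 0, 1 was between 1 and 9 counts and 17 were 10 or more. In Fyn-KO 3 of 40 member values were 0, none was between 1 and 9, and 37 were 10 or more. Over all tested genes 3.10% of values were 0 in Fyn-KO and 34.6% in WT, while 14.0% of WT values lay between 1 and 9 counts. The tested genes were chosen by a filter on these same counts, and these shares depend on it.

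**Figure D1:**
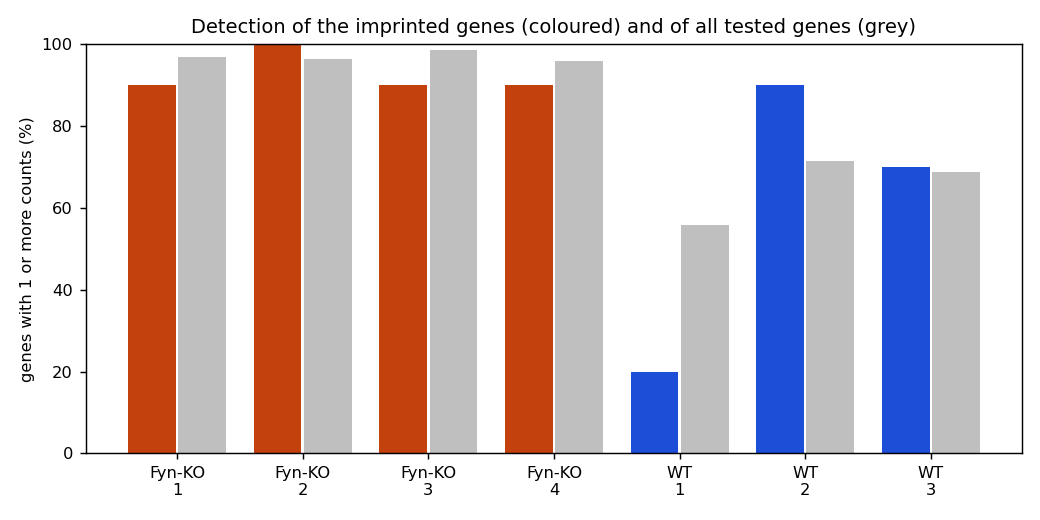
The share of the 10 imprinted genes and of all tested genes with at least 1 count, in percent, for each library, as coloured and grey bars. For the imprinted genes the Fyn-KO libraries lie at 90% or above and WT replicates 1 to 3 at 20, 90 and 70%. The tested genes lie at 95.9 to 98.6% in the Fyn-KO libraries and 55.8 to 71.5% in the WT libraries.

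Meg3 and Rian lie in the Dlk1-Dio3 domain of chromosome 12 and are maternally expressed noncoding RNAs. Meg3 (ENSMUSG00000021268.17, GRCm38 chr12:109541001-109571726, plus strand, lincRNA) is known as a growth-restraining RNA that is lost in many pituitary and brain tumours. It was at 147.5, 171, 269.7 and 173 CPM in Fyn-KO replicates 1 to 4 and at 163, 29.9 and 152 CPM in WT replicates 1 to 3. Only WT replicate 2 stood clearly below the rest, and the groups overlapped. The means were 190.4 ± 54.2 CPM in Fyn-KO (SD, n = 4) and 115 ± 73.8 CPM in WT (SD, n = 3). The log2 fold change was 0.55 ± 0.73 (SE), which did not pass (edgeR adjusted p = 0.700). It was 0.06 without WT replicate 2, 1.01 without WT replicate 3 and 1.63 with limma-voom. Meg3 was the most abundant member in every library but WT replicate 2, in which Sgce and Ndn were higher. Tags in this assay come from transcript ends, so their counts do not scale with transcript length.

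Rian (ENSMUSG00000097451.10, GRCm38 chr12:109603940-109661716, plus strand, processed transcript) hosts small nucleolar RNAs and miR-370. It begins 32214 bases after the end of Meg3 on the same strand. Its values were 6.61, 7.21, 26.9 and 8.47 CPM in Fyn-KO replicates 1 to 4 and 80.2, 7.45 and 6.04 CPM in WT replicates 1 to 3. Single libraries, Fyn-KO replicate 3 and WT replicate 1, lay far above the others, and the other values were alike. The means were 12.3 ± 9.78 CPM in Fyn-KO, against 31.2 ± 42.4 CPM in WT, and the log2 fold change of -1.33 ± 1.30 (SE) did not pass (edgeR adjusted p = 0.586). Without WT replicate 1 its direction turned, to 0.83.

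The balance of both RNAs was compared within each library, which does not depend on how libraries are scaled. Meg3 made up 95.7, 96.0, 90.9 and 95.3% of Meg3 and Rian tags in the Fyn-KO libraries and 67.0, 80.0 and 96.2% in the WT libraries. WT replicates 1 and 2 lay below all Fyn-KO libraries and WT replicate 3 above them. The mean share was 94.5 ± 2.39% in Fyn-KO and 81.1 ± 14.6% in WT (SD, n = 4 and 3), a difference that did not exceed the spread (exact two-sided permutation test over 35 splits, p = 0.143, smallest possible 0.0286).

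Dlk1 (ENSMUSG00000040856.17, GRCm38 chr12:109452823-109463336, plus strand), the paternally expressed protein-coding gene of the same domain, encodes a membrane protein related to Notch ligands that restrains differentiation. It was found in a single library, Fyn-KO replicate 2, at 15.9 CPM (165 counts). The other 3 Fyn-KO libraries and all 3 WT libraries had 0 counts. By counting error alone, that allows up to 0.334 CPM in the Fyn-KO libraries and 0.252 CPM in WT. It did not pass the filter on low counts and has no test in the fit used here. Of the other genes of the domain, Dio3 was at 0, 6.16, 3.28 and 0 CPM in Fyn-KO and at 0 in all WT libraries, and Rtl1 had no count in any library. Dlk1 ends 77665 bases before Meg3 begins. Its nearest paralogue, Dlk2, averaged 6.34 ± 3.48 CPM in Fyn-KO, against 35.9 ± 62.2 CPM in WT and did not pass (edgeR adjusted p = 0.572).

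**Figure D2:**
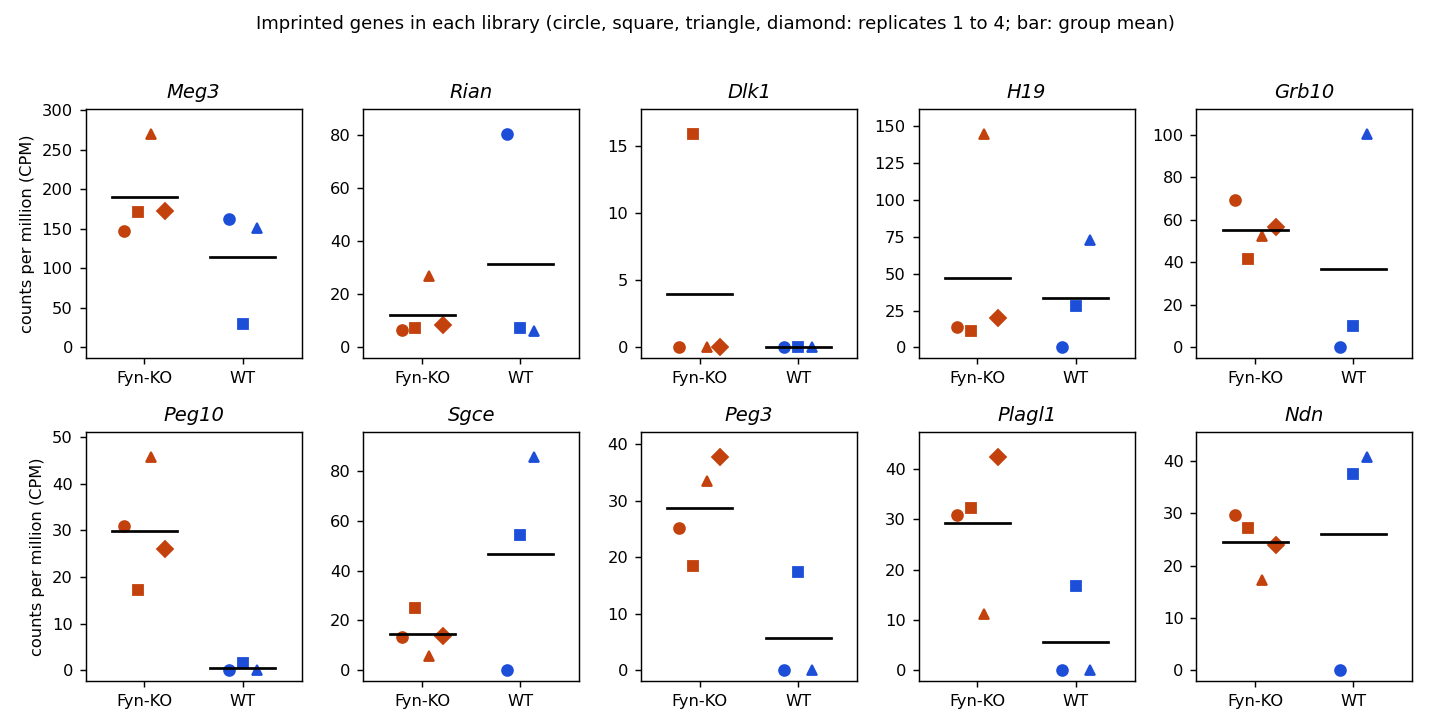
CPM of each of the 10 imprinted genes in every library, as points (circle, square, triangle and diamond for replicates 1 to 4) with bars at the group means; the 4 Fyn-KO libraries are left of the 3 WT libraries in each panel. Peg3 and Peg10 are the genes whose groups do not overlap, and H19 and Rian each have 1 Fyn-KO library far above the other 3.

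H19 (ENSMUSG00000000031.16, GRCm38 chr7:142575529-142578143, minus strand, lincRNA) is the maternally expressed host of miR-675, whose sequences are given above, and restrains growth. Its values were 14.0, 11.2, 144 and 20.1 CPM in Fyn-KO replicates 1 to 4 and 0, 27.7 and 73.0 CPM in WT replicates 1 to 3. Fyn-KO replicate 3 lay above every other library, and WT replicate 1 had no count. The means of 47.3 ± 64.7 CPM in the Fyn-KO libraries and 33.6 ± 36.8 CPM in WT differed by less than either SD. The log2 fold change was 0.31 ± 1.93 (SE; edgeR adjusted p = 0.948), and it turned to -1.28 without Fyn-KO replicate 3 and to -0.28 without WT replicate 1.

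Igf2, the paternally expressed growth factor that shares enhancers with H19, was at 0, 4.62, 6.90 and 5.79 CPM in the Fyn-KO libraries and at 0, 0.183 and 0 CPM in the WT libraries. The pooled WT count was 3, and the ratio of pooled CPM, Fyn-KO over WT, was 58.9, with a 95% exact interval of 19.8 to 288 that covers counting error only. The edgeR adjusted p was 0.0774, so Igf2 did not pass. H19 made up 100, 70.7, 95.4 and 77.6% of the H19 and Igf2 tags in the Fyn-KO libraries. The WT shares were 99.3% in replicate 2 and 100% in replicate 3, and WT replicate 1 had no tag of either gene. With 2 WT libraries no test was made.

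Peg10 and Sgce are paternally expressed neighbours on chromosome 6 that are transcribed away from each other from starts 99 bases apart. Peg10 (ENSMUSG00000092035.8, GRCm38 chr6:4747306-4760517, plus strand) is a gene of retrotransposon origin that placental development requires in mice. It was at 30.9, 17.1, 45.6 and 26.0 CPM in Fyn-KO replicates 1 to 4, and at 0, 1.47 and 0 CPM in WT replicates 1 to 3. All 24 WT counts came from replicate 2, and the lowest Fyn-KO library was above it. The means were 29.9 ± 11.9 CPM in Fyn-KO, against 0.489 ± 0.846 CPM in WT, a ratio of 61.2, with a log2 fold change of 6.15 ± 2.17 (SE). The edgeR quasi-likelihood test gave an adjusted p of 0.0753, which did not pass. The adjusted p over the alternatives ran from 0.000186 with DESeq2 to 0.469. Placental trophoblast markers were near 0, with 0 to 2.12 CPM summed over 6 genes in Fyn-KO and 0 in WT.

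Sgce (ENSMUSG00000004631.15, GRCm38 chr6:4674350-4747207, minus strand) encodes epsilon-sarcoglycan, a membrane glycoprotein whose paternal loss causes myoclonus-dystonia in humans. Its values were 13.4, 24.9, 5.80 and 13.8 CPM in Fyn-KO replicates 1 to 4 and 0, 54.4 and 85.5 CPM in WT replicates 1 to 3. The WT libraries lay on both sides of the Fyn-KO libraries: replicate 1 had no count, and replicates 2 and 3 were above all 4. The means were 14.5 ± 7.87 CPM in Fyn-KO, against 46.6 ± 43.3 CPM in WT, and the log2 fold change of -1.90 ± 1.80 (SE) did not pass (edgeR adjusted p = 0.571). Without WT replicate 1 it was -2.49 (edgeR adjusted p = 0.0710), without WT replicate 3 it was -0.66 (edgeR adjusted p = 0.838), and with limma-voom its direction turned, to 0.31.

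Set against each other within a library, the neighbours gave the widest contrast among the pairs examined. Peg10 held 69.7% of the Peg10 and Sgce tags in Fyn-KO replicate 1 (95% exact Clopper-Pearson interval 65.0 to 74.1%), 40.7% in replicate 2 (36.1 to 45.5%), 88.7% in replicate 3 (85.5 to 91.4%) and 65.3% in replicate 4 (60.1 to 70.2%). In WT it held 2.63% in replicate 2 (1.69 to 3.88%) and 0 of 1019 tags in replicate 3, with an upper bound of 0.361%. WT replicate 1 had no tag of either gene. All 4 Fyn-KO shares were above both WT shares, with means of 66.1 ± 19.7% in Fyn-KO (n = 4) and 1.31 ± 1.86% in WT (n = 2). With 2 WT libraries no test was made, and the intervals cover counting error only. The Fyn-KO libraries differed among themselves by more than those intervals.

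**Figure D3:**
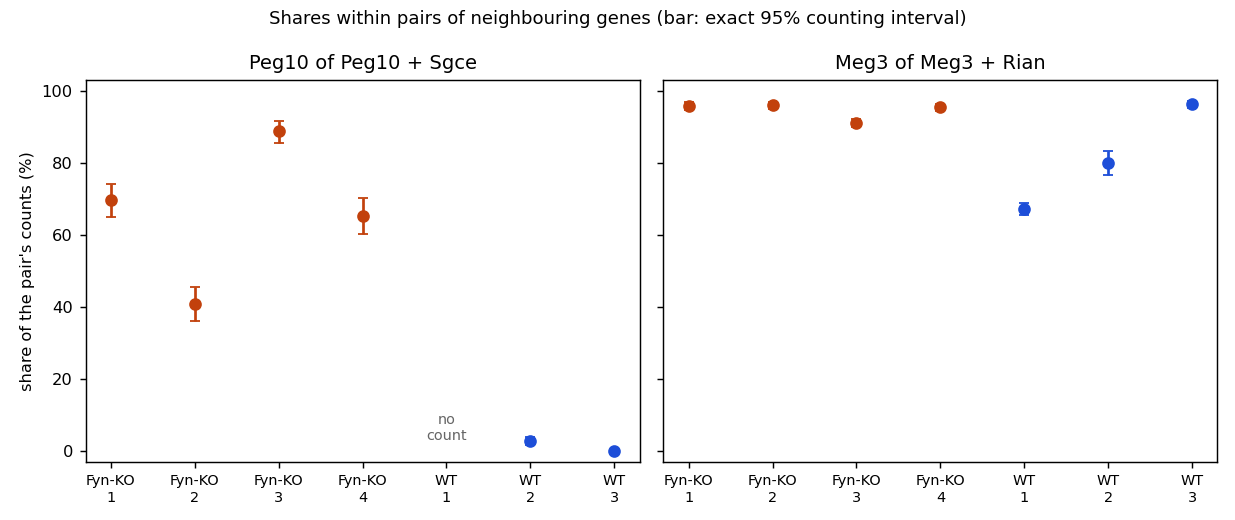
Share of tags held by Peg10 among Peg10 and Sgce tags and by Meg3 among Meg3 and Rian tags, in percent, per library, with 95% exact counting intervals; Fyn-KO libraries are left of WT libraries. Peg10 holds 40.7 to 88.7% of Peg10 and Sgce tags in Fyn-KO and 0 to 2.63% in the 2 WT libraries with tags, while Meg3 holds 90.9 to 96.0% of Meg3 and Rian tags in Fyn-KO and 67.0 to 96.2% in WT.

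Peg3 and Plagl1 encode zinc-finger proteins expressed from the paternal copy. Peg3 (ENSMUSG00000002265.16, GRCm38 chr7:6703892-6730431, minus strand) is known in mice for roles in growth and maternal behaviour. It was at 25.1, 18.4, 33.5 and 37.7 CPM in Fyn-KO replicates 1 to 4 and at 0, 17.3 and 0 CPM in WT replicates 1 to 3. The groups did not overlap, but the lowest Fyn-KO library and WT replicate 2 were close. The means were 28.7 ± 8.61 CPM in Fyn-KO, against 5.76 ± 9.98 CPM in WT, and the log2 fold change was 2.59 ± 2.22 (SE). It did not pass (edgeR adjusted p = 0.523; exact two-sided permutation test of CPM over 35 splits, p = 0.0571). Without WT replicate 2, in which all its WT counts lay, the edgeR adjusted p was 0.00455.

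Plagl1 (ENSMUSG00000019817.18, GRCm38 chr10:13060504-13131694, plus strand), also called Zac1, is a transcription factor that halts the cell cycle and regulates other imprinted genes in mice. Its values were 30.9, 32.3, 11.3 and 42.3 CPM in Fyn-KO replicates 1 to 4 and 0, 16.7 and 0.0839 CPM in WT replicates 1 to 3. Fyn-KO replicate 3 was below WT replicate 2, so the groups overlapped. The means were 29.2 ± 13 CPM in Fyn-KO, against 5.61 ± 9.64 CPM in WT, with a log2 fold change of 2.62 ± 2.06 (SE) that did not pass (edgeR adjusted p = 0.474). Without WT replicate 2 the edgeR adjusted p was 0.00616. The related gene Plagl2 averaged 13.1 ± 5.53 CPM in Fyn-KO, against 6.91 ± 12.0 CPM in WT (edgeR adjusted p = 0.852).

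Ndn (ENSMUSG00000033585.5, GRCm38 chr7:62346569-62350262, plus strand) encodes necdin, a MAGE-family protein that restrains the division of neuronal precursors. It was at 29.7, 27.2, 17.2 and 24.0 CPM in Fyn-KO replicates 1 to 4 and at 0, 37.4 and 40.7 CPM in WT replicates 1 to 3. As for Sgce, WT replicate 1 was below all Fyn-KO libraries and the other WT libraries were above them. The means were 24.5 ± 5.43 CPM in Fyn-KO, against 26.1 ± 22.6 CPM in WT, and the log2 fold change of -0.23 ± 1.71 (SE) did not pass (edgeR adjusted p = 0.956). The direction turned without WT replicate 3 (0.65), without Fyn-KO replicate 3 (0.01), among genes detected in both groups (0.14) and with limma-voom (1.72). It also turned with a replicate block (0.76).

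Grb10 (ENSMUSG00000020176.17, GRCm38 chr11:11930508-12038683, minus strand) encodes an adaptor that binds the insulin and IGF1 receptors and restrains their signalling. Its values were 69.5, 41.7, 52.5 and 56.8 CPM in Fyn-KO replicates 1 to 4 and 0, 10.02 and 100.2 CPM in WT replicates 1 to 3. The Fyn-KO libraries lay close together and the WT libraries spread from no count to above all of them. The means were 55.1 ± 11.5 CPM in Fyn-KO, against 36.7 ± 55.2 CPM in WT, with a log2 fold change of 0.21 ± 1.79 (SE; edgeR adjusted p = 0.961). The direction turned without WT replicate 1 (-0.37) or without WT replicate 2 (-0.29). Over the 9 tested members, the exact two-sided permutation p of CPM ran from 0.0571 (Peg3 and Peg10) to 0.971 (Ndn).

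**Figure D4:**
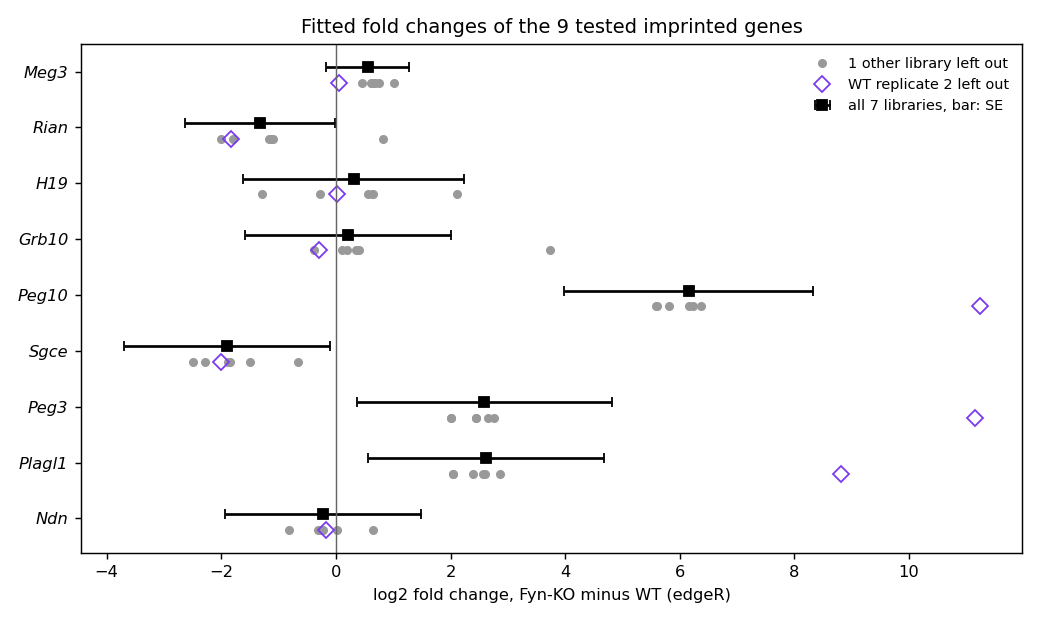
Log2 fold change, Fyn-KO minus WT, with its SE for the 9 tested imprinted genes, with the values obtained when 1 library is left out below each (diamonds: WT replicate 2 left out; for Peg3, Peg10 and Plagl1 these then set Fyn-KO against at most 1 WT count and are no measured size). Every adjusted p of the full fit is above 0.05; Peg10 has the highest value, 6.15, and the values of Rian, H19, Grb10 and Ndn cross 0 when single libraries are left out.

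Summed over the 10 genes, the level was 367.6, 367.0, 606.7 and 402.3 CPM in the Fyn-KO libraries and 243, 202 and 457 CPM in the WT libraries, with overlap. The maternally expressed genes summed to 238, 231, 493 and 259 CPM in Fyn-KO and to 243, 75.1 and 331 CPM in WT. The paternally expressed genes summed to 130.1, 136, 113 and 144 CPM in Fyn-KO and to 0, 127 and 126 CPM in WT. In WT replicate 1 the only members with a count were Meg3 and Rian, neighbours in the same domain. The maternally expressed H19 and Grb10 were at 0 there, as were the paternally expressed members. The paternally expressed Nnat, which is not a member, was at 1472 CPM in the same library, so no parental pattern is shown. The paternal sums of WT replicates 2 and 3 fell inside the Fyn-KO range of 113 to 144 CPM. Meg3 supplied 40.1 to 46.6% of the summed level in Fyn-KO and 14.8 to 67.0% in WT.

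The genes nearest in pattern were ranked by the root mean square difference of log2(CPM + 1) over the 7 libraries. The candidates were 9368 tested genes with a mean of 10 CPM or more, with predicted genes (Gm, Rik and LOC names) left out. Nearest to Peg3 was Stx1a, a syntaxin of synaptic vesicle fusion, at 0.164, and nearest to Peg10 was Bop1, a ribosome biogenesis factor, at 0.226. Plagl1 was nearest to Sertad1 (0.219), Ndn to Zfp955a (0.245), Sgce to B4galt4 (0.275) and Grb10 to Mcee (0.283). Meg3 was nearest to Prdm2 (0.388), and Rian and H19 had no close match, with Ica1 at 0.698 and Spef1 at 0.681. Among the members themselves, the closest pair was Peg3 and Plagl1 (0.650), followed by Sgce and Ndn (0.859). These are descriptions over libraries that share depth and detection.

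The other imprinted genes of mouse gave a wider view. Of 63 listed genes 60 were in the table, 51 had a count in some library and 38 were tested. By edgeR's quasi-likelihood test 5 rose, 5 fell and 28 did not pass, which is 13.2% in each direction, where 19% of all genes rose and 3.51% fell. Their median log2 fold change was 1.11, against 0.45 over all tested genes. In 9 of the 38 every Fyn-KO library was above every WT library, where 30.1% of all tested genes were so separated, and in 5 below, where 7.32% of all were. Both the 5 that fell and the 5 below include Snrpn and Snurf, which share a transcript and are 1 observation, so these shares are too high. Counts were found for 39, 39, 45 and 40 of the 60 in the Fyn-KO libraries and for 27, 28 and 27 in the WT libraries.

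Among those that rose, Kcnq1ot1, the paternally expressed noncoding RNA that silences the Kcnq1 domain, was at 518, 483, 459.8 and 449 CPM in the Fyn-KO libraries and 79.2, 38.3 and 100.3 CPM in WT. Its log2 fold change was 2.54 ± 0.54 (SE; edgeR adjusted p = 0.0125), a 6.58-fold ratio of means, and it passed with each library left out in turn. It lies antisense to Kcnq1, and the strand of counting is not given, so tags of both cannot be told apart. Dcn, which encodes decorin of the extracellular matrix and is imprinted in mouse placenta, averaged 529 ± 53.0 CPM in Fyn-KO, against 0.996 ± 1.34 CPM in WT (edgeR adjusted p = 0.0121). Dcn is also one of 5 fibroblast and pericyte markers, which summed to 1286 to 1802 CPM in the Fyn-KO libraries and 1.17 to 859 CPM in WT. Pon3, a paraoxonase gene near Peg10, averaged 56.1 ± 8.20 CPM in Fyn-KO, against 0.192 ± 0.212 CPM in WT (edgeR adjusted p = 0.0162), and did not pass without Fyn-KO replicate 1 or 2 (adjusted p up to 0.0530). Atp10a, a phospholipid flippase gene, averaged 14.8 ± 3.07 CPM in Fyn-KO and had no count in WT (edgeR adjusted p = 0.0121). It passed the filter on low counts through Fyn-KO alone. Its lower bound, against 3 counts per library, was 58.7-fold by counting error alone. Mcts2 averaged 14.7 ± 10.4 CPM in Fyn-KO and had 1 count in WT (edgeR adjusted p = 0.0124). The ratio of its pooled CPM was 595 with a 95% exact interval of 106 to 23538, and it is a retrogene copy of Mcts1 that lies inside H13, which did not pass (302 ± 19 CPM in the Fyn-KO libraries and 208 ± 36.6 CPM in WT, adjusted p = 0.548).

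Among those that fell, Nnat, the paternally expressed neuronatin of developing brain, was at 16.3, 26.0, 124 and 51.8 CPM in the Fyn-KO libraries and 1472, 905 and 637 CPM in WT. Its log2 fold change was -4.19 ± 0.77 (SE; edgeR adjusted p = 0.0121), and it passed with each library left out in turn (-4.96 without Fyn-KO replicate 3). It lies inside Blcap, which averaged 45.6 ± 10.5 CPM in Fyn-KO, against 86.5 ± 65.7 CPM in WT and did not pass (adjusted p = 0.482). Snrpn, which encodes a splicing protein of brain, averaged 17.1 ± 5.76 CPM in Fyn-KO, against 143 ± 99.4 CPM in WT (edgeR adjusted p = 0.0289). Snurf, encoded on the same transcript with nearly the same counts, had an adjusted p of 0.0313, and both are 1 observation. Neither passed when any 1 Fyn-KO library or WT replicate 1 was left out, with adjusted p up to 0.0906 for Snrpn. Inpp5f, an inositol phosphatase gene, averaged 26.2 ± 3.08 CPM in Fyn-KO, against 130.2 ± 7.12 CPM in WT (edgeR adjusted p = 0.0321), and did not pass when any 1 Fyn-KO library was left out (adjusted p up to 0.110). Nap1l4, a histone chaperone gene at the edge of the Kcnq1 domain, averaged 195 ± 22.9 CPM in Fyn-KO, against 577 ± 174 CPM in WT (edgeR adjusted p = 0.0180). It did not pass without Fyn-KO replicate 1 or 4 (adjusted p up to 0.0542). Neuron markers summed to 36.0 to 47.7 CPM in the Fyn-KO libraries and 46.6 to 122 CPM in WT, and the oligodendrocyte-lineage markers to 168, 173, 822 and 451 CPM in Fyn-KO replicates 1 to 4 and 11458 to 17272 CPM in WT. The part of either in the values of Nnat and Snrpn was not tested.

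Among those that did not pass, Mest, a paternally expressed growth gene, was at 40.0, 36.2, 37.3 and 36.1 CPM in the Fyn-KO libraries and 0, 21.4 and 0 CPM in WT (edgeR adjusted p = 0.515). Its groups did not overlap, and as for Peg3 all its WT counts were in replicate 2. Phactr2, the neighbour of Plagl1, was at 65.6, 66.4, 30.1 and 70.3 CPM in the Fyn-KO libraries and 0, 21.6 and 0.252 CPM in WT (edgeR adjusted p = 0.339), with its WT counts, like those of Plagl1, almost all in replicate 2. Ube3a, an E3 ubiquitin ligase expressed maternally in neurons, was at 278, 207, 211 and 252 CPM in the Fyn-KO libraries and 0.0783, 244 and 0.672 CPM in WT (edgeR adjusted p = 0.603). Gnas, the stimulatory G protein gene, averaged 909 ± 41.9 CPM in Fyn-KO, against 1046 ± 381 CPM in WT (edgeR adjusted p = 0.603). Igf2r, the maternally expressed receptor that clears IGF2, averaged 109 ± 47.7 CPM in Fyn-KO, against 93.4 ± 88.1 CPM in WT (edgeR adjusted p = 0.933).

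**Figure D5:**
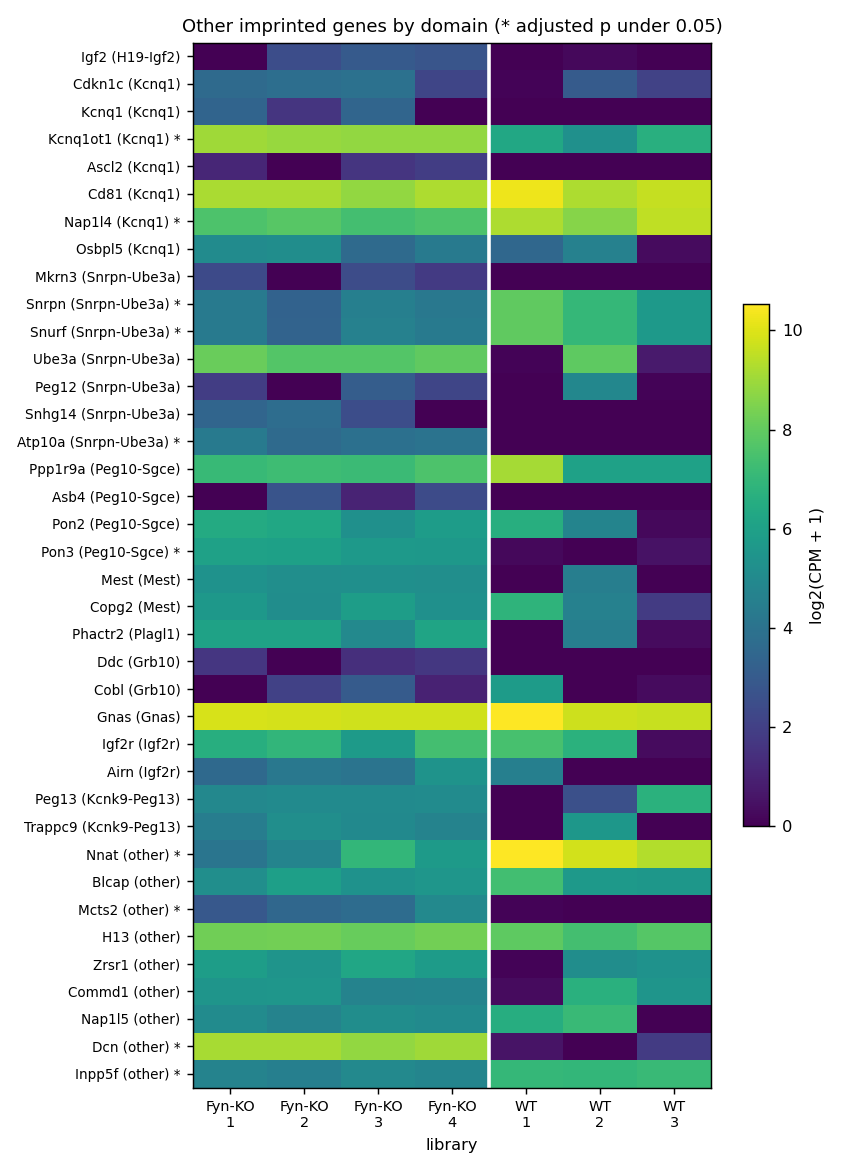
Heat map of log2(CPM + 1) for the 38 tested other imprinted genes (rows, with their domain) in each library (columns), with the 4 Fyn-KO libraries left of the 3 WT libraries and an asterisk at the 10 genes with an edgeR adjusted p under 0.05. Kcnq1ot1 is higher and Nnat lower in every Fyn-KO library than in every WT library.

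Factors that act on imprints or DNA methylation, a mixed list, were mostly short of the threshold. Of 18 listed genes 16 were tested, of which 2 rose, 0 fell and 14 did not pass by edgeR, where 19% of all tested genes rose and 3.51% fell, with a median log2 fold change of -0.05. Dnmt3l, the cofactor of germ-line DNA methylation, averaged 15.8 ± 3.05 CPM in Fyn-KO with no count in WT (edgeR adjusted p = 0.0121). Its lower bound was 62.8-fold by counting error alone. Dppa3, an oocyte and early-embryo factor, averaged 2.72 ± 2.56 CPM in Fyn-KO with no count in WT (edgeR adjusted p = 0.0144). It did not pass without WT replicate 1 (edgeR adjusted p = 0.0512). Dnmt3l and Dppa3 passed the filter on low counts through Fyn-KO alone. The lower bound of Dppa3 was 10.8-fold by counting error alone. Without Fyn-KO replicate 2 its bound was 5.76-fold. Trim28, the corepressor recruited to imprints, averaged 185 ± 40.1 CPM in Fyn-KO, against 390 ± 199.9 CPM in WT and did not pass (edgeR adjusted p = 0.163). Ctcf, the insulator protein of the H19 and Igf2 domain, averaged 165 ± 46.4 CPM in Fyn-KO, against 129 ± 139 CPM in WT (edgeR adjusted p = 0.968).

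Partners of the members were read in the same fit. Of 10 tested genes of insulin receptor signalling around Grb10, 0 rose, 1 fell and 9 did not pass by edgeR, beside shares of 19% and 3.51% over all tested genes. Pik3r1, the regulatory subunit of PI3-kinase, averaged 123 ± 12.9 CPM in Fyn-KO, against 406 ± 48.1 CPM in WT, a log2 fold change of -1.81 ± 0.39 (SE; edgeR adjusted p = 0.0127). Nedd4, the ubiquitin ligase that binds Grb10, averaged 731 ± 136 CPM in Fyn-KO, against 666 ± 139 CPM in WT (edgeR adjusted p = 0.868). Of 6 tested genes of the sarcoglycan and dystrophin complex around Sgce, 0 rose and 0 fell by edgeR, with 0 at an unadjusted p under 0.05 (26.3% of all tested genes were higher and 7.11% lower at that p). Dag1, which encodes dystroglycan, averaged 450 ± 136 CPM in Fyn-KO, against 721 ± 180 CPM in WT (edgeR adjusted p = 0.199).

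Of 7 tested MAGE-family genes and necdin partners, 1 rose, 1 fell and 5 did not pass by edgeR, against 19% of all tested genes that rose and 3.51% that fell. Maged1, a MAGE protein that, like necdin, binds the p75 neurotrophin receptor, was at 170, 170, 142 and 168 CPM in the Fyn-KO libraries and 1553, 1186 and 996 CPM in WT. Its log2 fold change was -3.0 ± 0.27 (SE; edgeR adjusted p = 0.00372), and it passed with each library left out in turn. Ngfr, which encodes that receptor, averaged 8.95 ± 1.79 CPM in Fyn-KO with no count in WT (edgeR adjusted p = 0.0121). It passed the filter on low counts through Fyn-KO alone, and its lower bound was 35.5-fold by counting error alone. Maged2 averaged 180 ± 26.5 CPM in Fyn-KO, against 59.5 ± 49.3 CPM in WT and did not pass (edgeR adjusted p = 0.363).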

How the data were processed

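RNA of FACS-sorted tumour cells was made into QuantSeq 3′ libraries, per the labels' protocols. Bowtie2, bedtools, DESeq2 1.32.0 and the build mm10 (GRCm38) are named in the submitters' processing notes. The authors deposited a table of whole-number counts per gene that they call modified. The sources used here do not give what was modified, the annotation or the strand of counting. A repeated symbol (46 entries) was kept as its own gene. WT replicate 3 is a column whose name fits the labels of more than 1 WT sample, and was used as WT with no sample assigned.

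CPM are counts per 1000000 of the library total. Genes were filtered with filterByExpr (10 counts, 15 in all), scaled by TMM and tested with edgeR 4.0.16 (R 4.3.3) by its two-sided quasi-likelihood test, Fyn-KO minus WT, with Benjamini-Hochberg adjustment over 13122 genes. The approximate SE divides the absolute log2 fold change by the root of F. Shares and CPM were compared by exact two-sided permutation over 35 splits, and lower bounds use 3 counts in the shallowest WT library (0.252 CPM). Intervals, floors and the lower bounds that rest on them cover counting error only, and they take each tag as independent. The edgeR step was run on simulated counts with the same dispersion in both groups and as many rises as falls. These settings differ from the data, so that run does not bear on the calls here.

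Alternatives used other scaling, filters, a replicate block, DESeq2 1.42.0, limma 3.58.1 and each library left out. Members and lists were chosen with earlier results of these data known. All members were named, and per list up to 4 genes that passed and up to 2 of the highest that did not, with a selection of the latter shown. Dio3 and Rtl1 were named after their values were seen. Coordinates are from GENCODE M21 and sequences from RefSeq GRCm38.p6.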

Additional observations from a re-analysis of the deposited data

Results flagged for a closer look

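Each of the 10 genes was examined over the 4 Fyn-KO libraries by Dixon's 95% criterion, which flags about 1 in 20 groups by chance where values are normally distributed. Over the tested genes 7.40% met it. Rian was at 26.9 CPM in Fyn-KO replicate 3, against 6.61 to 8.47 CPM in the other Fyn-KO libraries. H19 was at 144 CPM in the same library, against 11.2 to 20.1 CPM in the others. That library also had 822 CPM of oligodendrocyte-lineage markers (168 to 451 CPM in the other Fyn-KO libraries), 16.6% Rn45s (10.5 to 11%) and 23841 CPM of steroid-producing cell markers, the lowest of the 4, and the part of these in both values was not tested. Dlk1 was at 15.9 CPM in Fyn-KO replicate 2 and had no count in the others, a pattern that meets the criterion by construction. The 3 WT libraries were not examined this way.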

How the results depend on the processing

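Counts of members that passed as higher were 0 in the fit reported, 1 with DESeq2 and 0 to 3 with 1 library left out, while 0 passed as lower under every alternative run. For the other imprinted genes the count of 5 that rose became 1 among genes detected in both groups, 12 with DESeq2, 2 with limma-voom, 3 with a replicate block and 5 to 9 with 1 library left out. The count of 5 that fell became 1 among genes detected in both groups, 3 with limma-voom, 1 with the block and 1 to 6 with 1 library left out. Over all genes, the 2493 that rose became 52, 24 with limma-voom, 188 with the block and 2190 to 4585, and the 461 that fell became 146, 918 with DESeq2, 135 with the block and 247 to 839. The causes were not tested, except that the fit of genes detected in both groups drops genes by construction, Peg3, Peg10 and Plagl1 among them. DESeq2 gave neither a p nor an adjusted p for Rian and Grb10.

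The replicate numbers carry no stated pairing, and deviations of same-numbered libraries correlated at -0.014, 0 and -0.021, so the block rests on a shared number only. Of 130 member log2 fold changes under alternatives, 119 kept their direction, 11 turned and 4 passed only under the alternative. With 1 library left out, Rian ran from -2.0 to 0.83, H19 from -1.28 to 2.12, Grb10 from -0.37 to 3.73 and Ndn from -0.82 to 0.65. Sgce was 0.31 with limma-voom, and Ndn was 0.14 among genes detected in both groups, 1.72 with limma-voom and 0.76 with the block. The difference in mean log2(CPM + 1) of the members was 1.70, 0.93 with a pseudocount of 5, 2.05 with 0.5, 1.92 with totals that leave out Rn45s and the most abundant genes, and 0.96 to 2.13 with 1 library left out. The difference in summed CPM was 135, 217 with those totals and 78.0 to 213 with 1 library left out. The pooled SD of both groups was 0.92 and 126 CPM. It is a spread of single libraries and does not measure the uncertainty of these differences. By counting error alone the zeros allow at most 0.334 CPM, which leaves out the spread between libraries. Ube3a, for example, was at 0.0783, 244 and 0.672 CPM in WT replicates 1 to 3. With 3 WT libraries no exact permutation p below 0.0286 is possible.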
